A study of Mus musculus with 80 samples.

Results

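The genes described here set how much pyruvate enters the mitochondrial citric acid cycle as acetyl-CoA: the 4 pyruvate dehydrogenase kinases Pdk1, Pdk2, Pdk3 and Pdk4, the 2 phosphatases Pdp1 and Pdp2, and the 4 subunits Pdha1, Pdhb, Dlat and Pdhx of the pyruvate dehydrogenase complex. They were taken by name from the gene column of the count tables, so that 10 of 32764 genes are described, and all 10 passed the filter on low counts in every tissue. Gene expression was measured by RNA-seq in brown fat (BAT), the inguinal white fat pad (iWAT), muscle and liver of male C57BL/6J mice of 4 genotypes. These were wildtype mice (WT), mice without the hormone FGF21 (FGF21 KO), mice without uncoupling protein 1 (UCP1 KO) and mice lacking both (dKO, labelled as a UCP1/FGF12 double KO and named UCP1/FGF21 dKO in the methods), with 5 libraries per tissue and genotype and 80 in all. All 4 groups were raised at 30 °C, were moved to room temperature at an age of 10 to 12 weeks, and were fed a high-fat diet in place of chow for the last 3 weeks. Both deletions are constitutive and present in every cell of the body, so a difference in one tissue can follow from the loss of the gene in another. No label links the libraries of the same mouse, and each library was treated as a separate sample.

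Pyruvate dehydrogenase joins glycolysis to the citric acid cycle and cannot be run backwards, which makes it the point at which carbohydrate carbon is either burned or made into fat. The kinases phosphorylate the alpha subunit of the complex and switch it off, and the phosphatases remove the phosphate and switch it on again. Pdk4 is the kinase best known for responding to fasting and fat feeding, when fatty acids replace glucose as the fuel, and brown fat is a tissue that burns both. The levels reported here are of mRNA, and neither the protein nor its phosphorylation was measured.

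Library totals ran from 28691377 to 50380696 counts. Fgf21 had at most 3 counts in each library of FGF21 KO and dKO, in all 4 tissues. In BAT, Ucp1 had 98548 to 216085 counts in WT and 24291 to 60779 in UCP1 KO; these are counts over the whole gene, which do not separate the deleted part, and in iWAT they were higher in UCP1 KO (3942 to 20264) than in WT (109 to 776). Lymph node genes, scored as the mean log2(CPM + 0.1) of 8 B and T cell genes, where CPM is the count scaled to library size, divided the iWAT libraries into 9 with scores of 6.25 to 7.17 and 11 with scores of at most 1.62. The 9 were WT replicates 4 and 5, FGF21 KO replicates 1, 3, 4 and 5, UCP1 KO replicate 2, and dKO replicates 1 and 3. A score over 10 skeletal muscle genes exceeded 6 in 3 iWAT libraries (WT replicate 5, FGF21 KO replicate 5, UCP1 KO replicate 1) and in 4 BAT libraries (UCP1 KO replicate 2, dKO replicates 1, 3 and 4). BAT UCP1 KO replicate 1 also stood apart from the other libraries of its group, in the levels of Pdk2 and Pdp1 themselves. The genotype and tissue comparisons were also fitted without the libraries with lymph node or muscle signal. Hepatocyte markers summed to 63200 to 100000 CPM in liver and skeletal muscle markers to 118000 to 154000 CPM in muscle. In bulk tissue, fewer cells of a type and less RNA per cell cannot be told apart.

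In the mouse genome build GRCm38 (mm10), the kinase genes lie at chr2:71873224-71903858 (Pdk1), chr11:95026258-95041354 (Pdk2), chrX:93764607-93832201 (Pdk3) and chr6:5483351-5496309 (Pdk4). The phosphatase genes lie at chr4:11958184-11966452 (Pdp1) and chr8:104591451-104599026 (Pdp2). The subunit genes lie at chrX:160122209-160138413 (Pdha1), chr14:8165996-8173025 (Pdhb), chr9:50634633-50659780 (Dlat) and chr2:103021075-103073513 (Pdhx). All 10 are protein-coding, with Pdk1 and Pdp2 on the plus strand and the others on the minus strand. Only Pdha1 shared exon bases with another gene, 603 of its 3734 (16.1%) with Map3k15 on the opposite strand. Whether reads were counted by strand is not stated, so part of the Pdha1 count could come from that gene.

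The bases just before the start of transcription are shown for Pdk4 and Pdk2, which were called against WT in iWAT and in BAT, and for Pdhb, a subunit gene called in iWAT between UCP1 KO and FGF21 KO but not against WT. They are read 5′ to 3′ on the minus strand from RefSeq's GRCm38.p6 annotation, at chr6:5496310-5496528 for Pdk4, chr14:8173026-8173242 for Pdhb and chr11:95041372-95041621 for Pdk2, and capitals mark matches to the motifs searched.
Pdk4: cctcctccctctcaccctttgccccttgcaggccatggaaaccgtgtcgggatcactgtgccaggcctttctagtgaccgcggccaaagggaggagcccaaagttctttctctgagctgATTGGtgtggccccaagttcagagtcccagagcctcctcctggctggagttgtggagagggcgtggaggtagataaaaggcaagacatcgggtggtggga
Pdhb: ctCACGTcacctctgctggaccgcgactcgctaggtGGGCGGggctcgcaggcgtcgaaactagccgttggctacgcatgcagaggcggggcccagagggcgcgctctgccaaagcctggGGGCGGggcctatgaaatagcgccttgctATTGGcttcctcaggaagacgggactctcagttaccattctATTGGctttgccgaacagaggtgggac
Pdk2: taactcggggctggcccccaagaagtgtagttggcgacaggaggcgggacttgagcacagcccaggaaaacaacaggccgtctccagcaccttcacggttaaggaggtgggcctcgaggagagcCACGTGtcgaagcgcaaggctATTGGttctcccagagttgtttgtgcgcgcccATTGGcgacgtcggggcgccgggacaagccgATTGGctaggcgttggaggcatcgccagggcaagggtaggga
The capitals are CCAAT boxes (CCAAT, or ATTGG on the other strand) in all 3, GC boxes (GGGCGG) in Pdhb, an E-box (CACGTG) in Pdk2, and the hypoxia response core (ACGTG or CACGT, which overlaps the E-box) in Pdhb and Pdk2. The stretches for Pdk4 and Pdhb stop where the gene begins as given above, so that 219 and 217 bases are shown, against 250 for Pdk2. The motif search used the 250 bases before RefSeq's start, which were found for 9 of the 10 members, the exception being Pdp1. Among 32851 such windows, 33.8% held a CCAAT box, 32.7% a GC box, 16.6% the hypoxia response core and 6.02% an E-box. The nuclear receptor half-site AGGTCA (14.0% of all windows), the FOXO site GTAAACA (3.17%) and the TATA box TATAAA (12.4%) matched no member window on either strand, which says only that these letters are not in these stretches.

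In WT mice, the kinase mRNA of BAT and muscle was mostly Pdk4, and that of liver was mostly Pdk2. Levels that are compared between genes are given as CPM per kilobase of exon, with the SD over 5 libraries. Pdk4 stood at 1190 ± 175 in BAT, 582 ± 105 in muscle, 38.6 ± 11.1 in iWAT and 2.27 ± 1.03 in liver. The log2 difference was 9.04 ± 0.65 (SE) between BAT and liver (adjusted p = 1.87e-20, edgeR's quasi-likelihood test with Benjamini-Hochberg adjustment over 18297 genes) and 4.95 ± 0.54 between BAT and iWAT (adjusted p = 1.83e-12, edgeR). BAT and muscle differed by 1.04 ± 0.46, which did not pass the threshold of 0.01 (adjusted p = 0.0427, edgeR). Pdk2, the most widely expressed of the kinases, spanned a narrower range, with 130 ± 3.44 in muscle, 116 ± 3.04 in BAT, 46.0 ± 3.14 in liver and 20.6 ± 1.62 in iWAT. The levels of Pdk2 in BAT and muscle did not differ beyond the test (log2 difference -0.16 ± 0.18, adjusted p = 0.47, edgeR). Pdk1, a kinase known as a target of the hypoxia response, stood at 20.6 ± 3.38 in BAT, 15.4 ± 1.57 in liver, 12.6 ± 1.07 in muscle and 4.96 ± 1.41 in iWAT. Pdk3 was the rarest kinase everywhere and, unlike the others, was highest in iWAT, at 2.27 ± 0.389 against 0.442 ± 0.107 in BAT, 0.388 ± 0.0639 in muscle and 0.161 ± 0.0286 in liver.

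**Figure D1:**
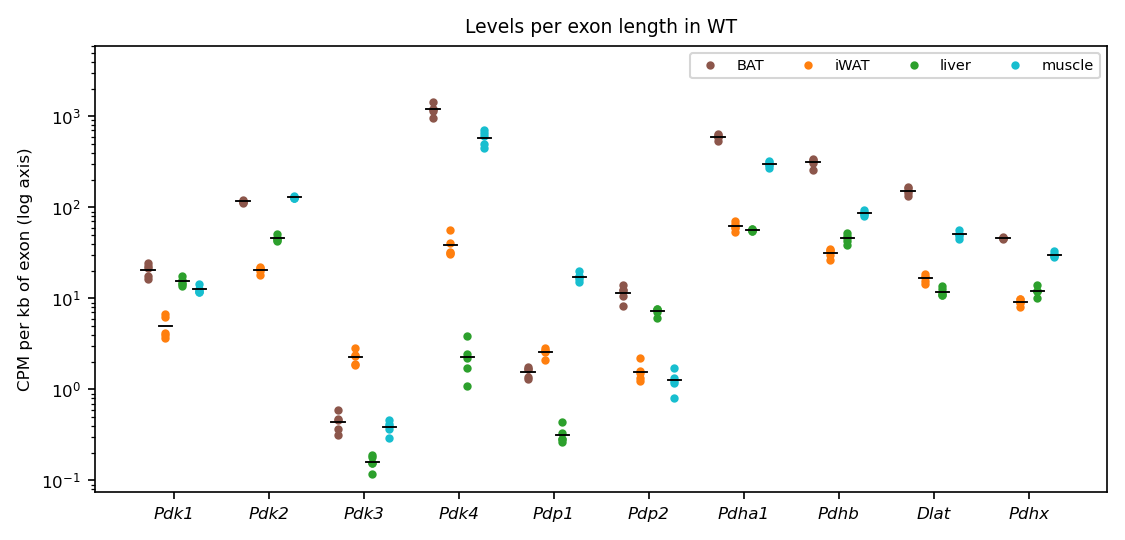
Levels of the 10 genes in WT mice, in CPM per kilobase of exon on a log axis, with 1 point per library (5 per tissue) for BAT, iWAT, liver and muscle. Pdk4 spans the widest range, from 2.27 ± 1.03 (mean ± SD) in liver to 1190 ± 175 in BAT, and Pdp1 and Pdp2 are ordered differently across the tissues.

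As a share of the summed kinase level per kilobase, Pdk4 made up 89.6 ± 1.22% in BAT, 57.4 ± 4.85% in iWAT and 3.53 ± 1.48% in liver (SD, n = 5 WT libraries each), and between 76.1 and 82.7% in the 5 muscle libraries. In liver Pdk2 made up 72.2 ± 2.79% and Pdk1 24.1 ± 1.30%. The summed kinase level was 2.45 ± 0.408 times that of Pdha1, the subunit the kinases phosphorylate, in muscle, 2.24 ± 0.291 times in BAT, 1.13 ± 0.0489 times in liver and 1.09 ± 0.319 times in iWAT.

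**Figure D2:**
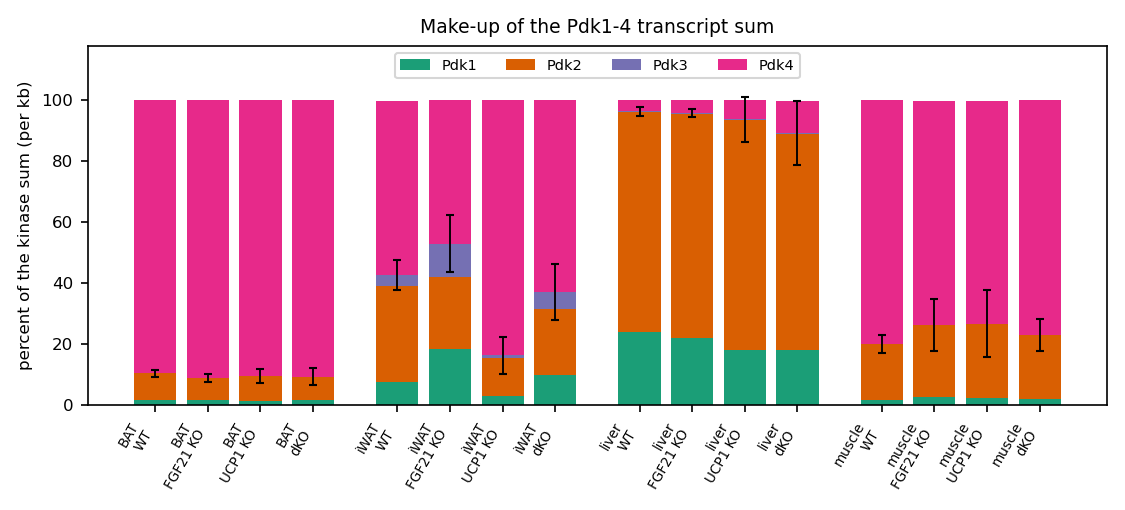
Share of each kinase (percent of the summed CPM per kilobase of Pdk1 to Pdk4), as stacked bars of the means of 5 libraries per tissue and genotype, with the SD of the Pdk4 share as error bar. Pdk4 takes 83.7% in iWAT of UCP1 KO against 57.4% in WT, 89.6 to 91.1% in BAT over the 4 genotypes, and the smallest share in liver.

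The phosphatases were expressed in opposite tissues. Pdp1, the calcium-stimulated form, was highest in WT muscle at 17.3 ± 1.68 CPM per kilobase and lowest in liver at 0.32 ± 0.0701, with 2.57 ± 0.27 in iWAT and 1.56 ± 0.201 in BAT. Pdp2, the form that does not need calcium, was highest in BAT at 11.5 ± 2.15, followed by liver at 7.18 ± 0.7, iWAT at 1.57 ± 0.378 and muscle at 1.26 ± 0.323. The neighbours BAT and liver differed by 0.68 ± 0.23 on the log2 scale (adjusted p = 0.00806, edgeR), a call that was lost without any of BAT replicates 3 to 5 or any of the liver libraries (8 of 10 omissions, adjusted p up to 0.0270), and iWAT and muscle did not differ beyond the test. The ratio of Pdp2 to Pdp1 was 23.1 ± 4.16 in liver, 7.48 ± 1.62 in BAT, 0.628 ± 0.231 in iWAT and 0.0724 ± 0.0158 in muscle.

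The subunits followed a common order, highest in BAT, then muscle, and lower in liver and iWAT. Pdha1, the catalytic alpha subunit, stood at 596 ± 40.4, 297 ± 21.4, 56.5 ± 1.55 and 61.7 ± 6.28 CPM per kilobase in BAT, muscle, liver and iWAT. Pdhb, its beta partner, stood at 312 ± 33.2, 86.9 ± 5.1, 45.5 ± 5.27 and 31.7 ± 3.31. Dlat, which transfers the acetyl group, stood at 152 ± 13.6, 50.3 ± 3.98, 11.9 ± 1.3 and 16.7 ± 1.65, and Pdhx, which anchors the final enzyme of the complex, at 46.1 ± 0.924, 30.3 ± 1.74, 12.0 ± 1.37 and 9.17 ± 0.785. None of the 4 subunits passed the threshold between iWAT and liver, but without the libraries with lymph node signal Dlat did (0.53, adjusted p = 0.00154, edgeR), as did Pdhx (-0.37, adjusted p = 0.00271). Between BAT and iWAT all 10 members passed it, 8 higher and 2 lower in BAT (Pdk3 and Pdp1), where 55.8% of all genes tested were called. Called members numbered 9 between BAT and liver (63.1% of all genes), 7 between BAT and muscle (59.3%), 6 between iWAT and liver (70.8%), 9 between iWAT and muscle (70.2%) and 9 between liver and muscle (70.0%). The median ratio of Pdhb to Pdha1 in CPM over 20 libraries was 0.56 in BAT, 0.551 in iWAT, 0.834 in liver and 0.299 in muscle, with no test of the ratio.

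The comparison of UCP1 KO with WT asks what the loss of UCP1 changes after 3 weeks of high-fat diet at room temperature. That of UCP1 KO with dKO asks what the loss of FGF21 changes in mice without UCP1. Whether the effect of UCP1 loss depends on FGF21 is asked by the interaction, given further below. In iWAT of UCP1 KO mice, Pdk4 rose above its level in WT and above that in dKO. Pdk4 stood at 167, 228, 177, 183 and 319 CPM in the 5 WT libraries. It stood at 1038, 500, 1480, 1818 and 3421 CPM in UCP1 KO. In dKO it stood at 90.4, 187, 128, 391 and 219 CPM, and in FGF21 KO at 82.9, 145, 39.3, 72.9 and 115 CPM. The lowest UCP1 KO library, replicate 2 at 500 CPM, lay above the highest library of every other genotype. The log2 difference from WT was 2.94 ± 0.49 (SE, adjusted p = 0.00363, edgeR over 17380 genes), and Pdk4 was the only member called among 10, where 0.61% of all genes tested were. Against dKO it was 3.03 ± 0.49 (adjusted p = 0.00394, edgeR), again with Pdk4 as the only member called (0.466% of all genes).

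**Figure D3:**
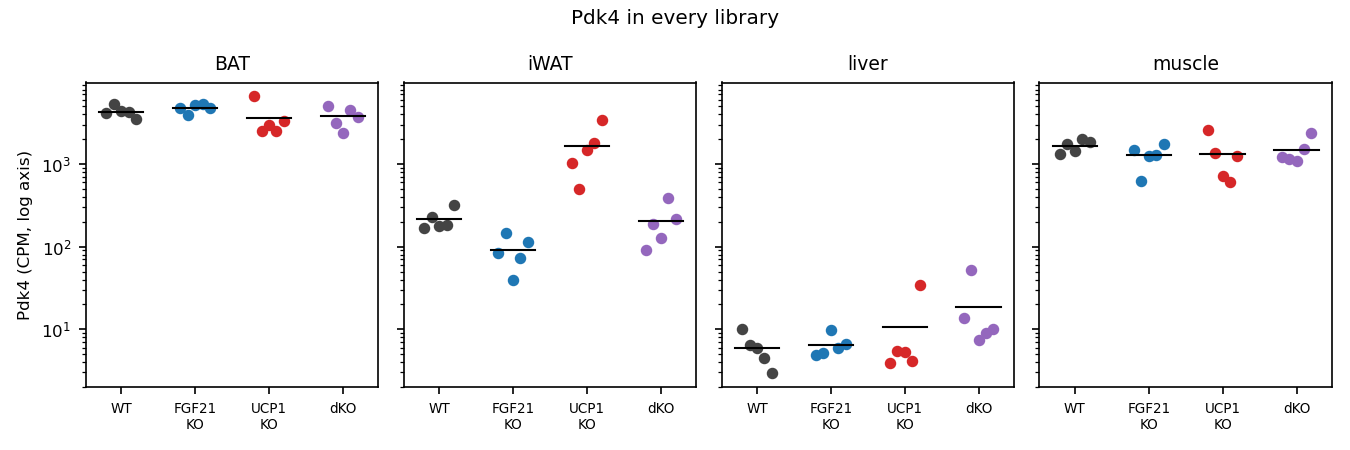
Pdk4 in every library, in CPM on a log axis, by genotype in BAT, iWAT, liver and muscle, with 1 point per library and a black line at the group mean. CPM was scaled within each tissue, so heights are not comparable between the panels. On the scale shared by all 80 libraries, Pdk4 reached 633 CPM per kilobase in UCP1 KO iWAT and stood at 960 to 1450 in WT BAT. In iWAT the 5 UCP1 KO libraries (500 to 3421 CPM) lie above those of all other genotypes, and in the other 3 tissues the genotypes overlap.

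DESeq2 called 6 members higher against WT and 7 against dKO where edgeR called Pdk4 alone, and DESeq2 also called more of all genes, 3.43% and 3.08%. With only the 2 genotypes compared in the fit, adjusted p for Pdk4 was 0.0306 against WT and 0.0910 against dKO (edgeR). The Pdk4 call was also lost without WT replicate 1, 2, 3 or 4 or UCP1 KO replicate 4 or 5 (log2 differences of at least 2.49, adjusted p up to 0.0193, edgeR), and against dKO without UCP1 KO replicate 3, 4 or 5 or dKO replicate 1, 2, 3 or 5 (at least 2.58, adjusted p up to 0.0178).

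The subunits and Pdp2 lay higher in UCP1 KO iWAT as well, but with adjusted p between the thresholds of 0.01 and 0.05 or above. Pdhb stood at 431, 272, 698, 723 and 963 CPM in UCP1 KO against 204, 213, 184, 206 and 164 in WT and 103, 200, 141, 259 and 224 in dKO. Its log2 difference from WT was 1.67 ± 0.35 (adjusted p = 0.0155, edgeR). Dlat stood at 278, 161, 438, 387 and 570 CPM in UCP1 KO against 112 to 144 in WT, with a difference of 1.51 ± 0.37 (adjusted p = 0.0355, edgeR). For these genes too replicate 2 was the lowest UCP1 KO library, though still above every WT library. Pdha1 ranged from 413 to 1349 CPM in UCP1 KO and from 320 to 414 in WT, where replicate 2 overlapped WT (difference 1.33 ± 0.32, adjusted p = 0.0311, edgeR). Pdhx ranged from 64.2 to 196 CPM against 50.5 to 63.1 (1.16 ± 0.31, adjusted p = 0.0521), and Pdp2 from 18.7 to 43.5 against 11.0 to 20.1 (1.07 ± 0.25, adjusted p = 0.0303). The groups did not overlap for Pdk4, Pdhb, Dlat and Pdhx, 4 of 10 members, where libraries of UCP1 KO and WT did not overlap for 3.83% of all genes.

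The other kinases did not pass the test against WT. Pdk2 stood at 223, 84.3, 186, 180 and 256 CPM in UCP1 KO and at 89.7, 105, 99.0, 111 and 112 CPM in WT, with replicate 2 of UCP1 KO below all WT libraries (0.85 ± 0.32, adjusted p = 0.204, edgeR). Pdk1 ranged from 78.4 to 114 CPM in UCP1 KO and from 45.5 to 83.4 in WT (0.63 ± 0.23, adjusted p = 0.171). Pdk3 and Pdp1 had differences of -0.32 ± 0.25 and -0.21 ± 0.14, and neither passed the test. The median difference over the 10 members was 1.11, against -0.03 over all genes tested.

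**Figure D4:**
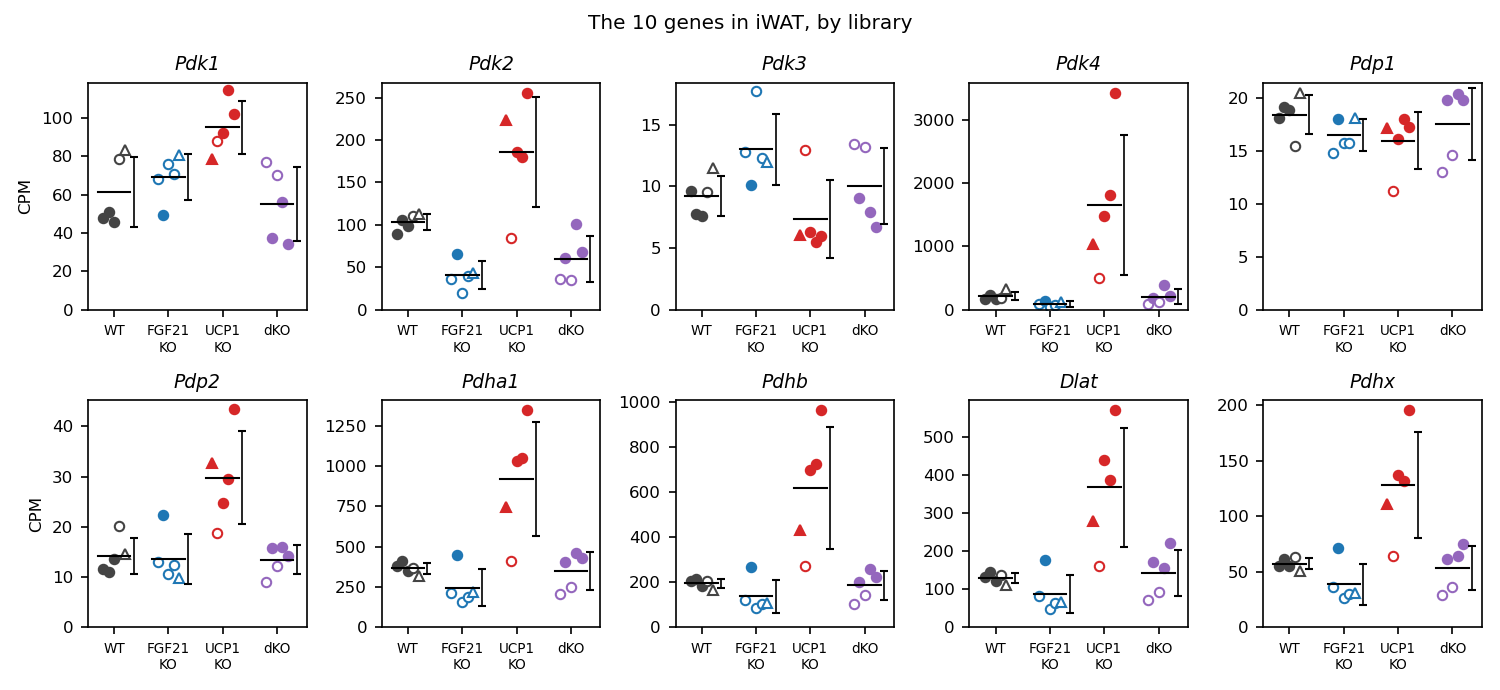
The 10 genes in iWAT, in CPM on linear axes, 1 panel per gene and 1 point per library in the order WT, FGF21 KO, UCP1 KO and dKO, with the mean as a line and ± SD beside it. Open symbols mark libraries with a lymph node score above 4 and triangles those with a skeletal muscle score above 6. UCP1 KO libraries reach the highest values in 8 panels and not in those of Pdk3 and Pdp1.

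In the comparison of UCP1 KO with dKO, the log2 differences were 1.74 ± 0.35 for Pdhb, 1.63 ± 0.33 for Pdk2, 1.39 ± 0.32 for Pdha1, 1.37 ± 0.37 for Dlat, 1.27 ± 0.31 for Pdhx and 1.15 ± 0.25 for Pdp2, with adjusted p from 0.0145 to 0.0587 (edgeR). Pdk1, Pdk4, Pdp2 and Pdhb did not overlap between these groups (2.09% of all genes). No member was called between dKO and WT, where the differences lay between -0.78 and 0.14 (0 of 10 by edgeR and by DESeq2, 1 with an unadjusted p under 0.05, and 0.0173% of all genes called). Nor was one called between dKO and FGF21 KO (0 by both tools, 1 with an unadjusted p under 0.05, 0.0115% of all genes) or between FGF21 KO and WT (0 by both tools, 2 with an unadjusted p under 0.05, 0.00575% of all genes). In the last comparison Pdk2 (19.4 to 65.2 CPM in FGF21 KO, 89.7 to 112 in WT) and Pdk4 were lower in every FGF21 KO library, which 2.71% of all genes were in one direction or the other. Between UCP1 KO and FGF21 KO 7 members were called higher (3.76% of all genes called), all but Pdk1, Pdk3 and Pdp1. None was called with only those 2 genotypes fitted (0.00575% of all genes), 1 (Pdk4) without the libraries with muscle signal (0.593%), and none without those with lymph node signal (0.0%), which left 1 FGF21 KO library. The difference between the effect of UCP1 loss with and without FGF21 was tested as an interaction. It was 1.78 ± 0.65 on the log2 scale for Pdk4 and did not pass the test (adjusted p = 0.365, edgeR), as for every other member (0 of 10 by edgeR and by DESeq2, 4 with an unadjusted p under 0.05, and 0.0% of all genes).

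Markers of other tissue and cell types also differed between the iWAT libraries. FGF21 KO held 4 and UCP1 KO held 1 of the 9 libraries with lymph node signal, whose summed marker level reached 1030 to 1500 CPM in all 4 genotypes, and no marker of the list was at 0 throughout a group. UCP1 KO replicate 2, the one such library of its group, was its lowest for Pdk4, Pdk2, Pdha1, Pdhb, Dlat, Pdhx, Pdp1 and Pdp2. For Pdk4, the libraries with this signal were also lower in dKO, at 90.4 to 128 against 187 to 391 CPM. In FGF21 KO they stood at 39.3 to 115 against 145 CPM in the other library. In WT they were not lower, at 183 to 319 against 167 to 228 CPM. Without UCP1 KO replicate 2 alone, 5 members were called higher against WT (Pdk4, Pdp2, Pdha1, Pdhb and Dlat), where 2.07% of all genes were called, and 6 against dKO (2.14%). The Pdk4 difference from WT was then 3.17 (adjusted p = 0.000686, edgeR). This omission was uneven: it took out the lowest UCP1 KO library and kept the WT and dKO libraries with lymph node signal. Among the libraries with low lymph node scores only (3 WT, 4 UCP1 KO, 3 dKO and 1 FGF21 KO), 8 members were called higher against WT (3.73% of all genes called), with Pdk4 at 3.32 (adjusted p = 0.00273, edgeR), and 6 against dKO (0.944%). Without the 3 iWAT libraries with muscle signal, which include UCP1 KO replicate 1 at a summed muscle marker level of 21900 CPM, no member was called against WT (0.224% of all genes), and adjusted p for Pdk4 was 0.0108 (edgeR). The Pdk4 call against dKO was kept in that fit. Brown adipocyte markers (Cidea, Cox7a1, Dio2, Ppargc1a and Elovl3) summed to 292 to 1960 CPM in UCP1 KO against 24.1 to 68.3 in WT, 9.39 to 58.4 in FGF21 KO and 19.8 to 109 in dKO. The 5 general adipocyte markers summed to 11900 to 22200 CPM in UCP1 KO and 12200 to 23500 in WT, and reached lower in FGF21 KO (4410 to 19300) and dKO (8840 to 22900). With the lymph node score in the fit, 6 members were called against WT (4.51% of all genes) and 8 against dKO (4.45%), and with the skeletal muscle score Pdk4 alone was called in both (0.61% and 0.322%). The part of the brown and general adipocyte markers in the changes of the members was not tested.

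The proportions among the members are given as values, with no test. In UCP1 KO iWAT Pdk4 made up 76.8 to 91.0% of the kinase level per kilobase, in WT 51.6 to 64.2% and in dKO 49.3 to 72.6%. The summed kinase level over Pdha1 was 2.09 ± 0.515 in UCP1 KO, 1.09 ± 0.319 in WT, 0.93 ± 0.196 in dKO and 0.85 ± 0.166 in FGF21 KO, with single libraries at 1.68 to 2.96 in UCP1 KO and 0.843 to 1.65 in WT. Pdk4 alone made the sum higher relative to Pdha1: between WT and UCP1 KO the mean level per kilobase went from 61.7 to 159 for Pdha1 and from 38.6 to 304 for Pdk4, but from 20.6 to 38.0 for Pdk2, from 4.96 to 7.89 for Pdk1 and from 2.27 to 1.85 for Pdk3, which all lay lower relative to Pdha1 in UCP1 KO. The Pdp2 to Pdp1 ratio was 1.47 ± 0.317 in UCP1 KO and 0.628 ± 0.231 in WT. The ratio of Pdhb to Pdha1 in CPM was 0.58 to 0.714 in UCP1 KO, 0.513 to 0.563 in WT, 0.492 to 0.57 in dKO and 0.492 to 0.6 in FGF21 KO, whose range overlapped that of UCP1 KO. In BAT that ratio was 0.587 to 0.707 in UCP1 KO, 0.498 to 0.571 in WT, 0.495 to 0.741 in dKO and 0.452 to 0.529 in FGF21 KO. Across the 20 iWAT libraries, which share the differences in genotype and in lymph node signal, Pearson's r of log2 CPM was 0.993 between Pdha1 and Pdhb, 0.981 between Pdhb and Dlat, 0.959 between Pdk4 and Pdhb, 0.168 between Pdp1 and Pdhb and -0.844 between Pdk3 and Pdhb. Pdhb and Pdk4 share only the CCAAT box among the motifs searched in the stretches printed above.

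In BAT, Pdk2 was lower than in WT in both genotypes without UCP1, Pdp1 was called higher in UCP1 KO but not in dKO, and Pdk4 did not pass the test. These were 2 of 10 members called between UCP1 KO and WT, where 25.2% of all genes tested were, and 1 of 10 between dKO and WT (21.1%), and neither count stood above the share of all genes. Pdk2 stood at 368, 394, 375, 382 and 379 CPM in WT. In UCP1 KO it stood at 352, 253, 258, 245 and 243 CPM, and in dKO at 288, 252, 263, 230 and 279 CPM. Every library without UCP1 was below every WT library (groups did not overlap for 23.5% of all genes in UCP1 KO and 24.8% in dKO), and UCP1 KO replicate 1 was the one nearest to WT. The log2 difference from WT was -0.49 ± 0.09 in UCP1 KO (adjusted p = 0.000354, edgeR over 15729 genes) and -0.53 ± 0.09 in dKO (adjusted p = 0.000223). FGF21 KO libraries, at 316 to 360 CPM, were also all below WT, by a difference of -0.15 ± 0.09 that did not pass the test (adjusted p = 0.712), and the groups did not overlap for 3.79% of all genes. Against FGF21 KO, Pdk2 was lower in dKO by -0.39 ± 0.09 (adjusted p = 0.00410, edgeR), which was lost without dKO replicate 2 or FGF21 KO replicate 1, 2, 4 or 5 (up to 0.0155), with the skeletal muscle score in the fit (0.0408) and without the libraries with a high muscle score (0.0360).

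Pdp1 stood at 7.94, 6.11, 6.43, 8.13 and 7.73 CPM in WT. In UCP1 KO it stood at 7.56, 11.9, 10.9, 11.6 and 12.1 CPM, and in dKO at 9.06, 7.27, 8.39, 13.0 and 8.38 CPM. All UCP1 KO libraries except replicate 1 were above WT, with a log2 difference of 0.57 ± 0.15 (adjusted p = 0.00531, edgeR), while the dKO libraries overlapped WT (0.34 ± 0.15, adjusted p = 0.0786). The Pdk2 calls against WT were kept under every alternative and single omission tried, whereas the Pdp1 call was lost when the fit held the skeletal muscle score (adjusted p = 0.0289), with only the 2 genotypes fitted (0.0113), and without WT replicate 2 or 3 or UCP1 KO replicate 2, 3, 4 or 5 (up to 0.0152, edgeR). Skeletal muscle markers summed to 88.0 to 184 CPM in WT, to 77.7 to 8910 CPM in UCP1 KO and to 138 to 4740 CPM in dKO, where 3 of 5 libraries had a high score. Without the 4 BAT libraries with a high muscle score, Pdk2 and Pdp1 were both still called in UCP1 KO against WT, as was Pdk2 in dKO against WT. The mean log2(CPM + 0.1) of the adipocyte markers was 8.92 to 9.53 in WT, 7.29 to 9.16 in UCP1 KO and 8.14 to 8.88 in dKO, and that of the brown adipocyte markers was 7.17 to 8.29, 7.71 to 8.96 and 8.39 to 8.82. The part of these adipocyte scores in the results was not tested. Between dKO and FGF21 KO, Pdk2 was 1 of 10 members called (13.5% of all genes).

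**Figure D5:**
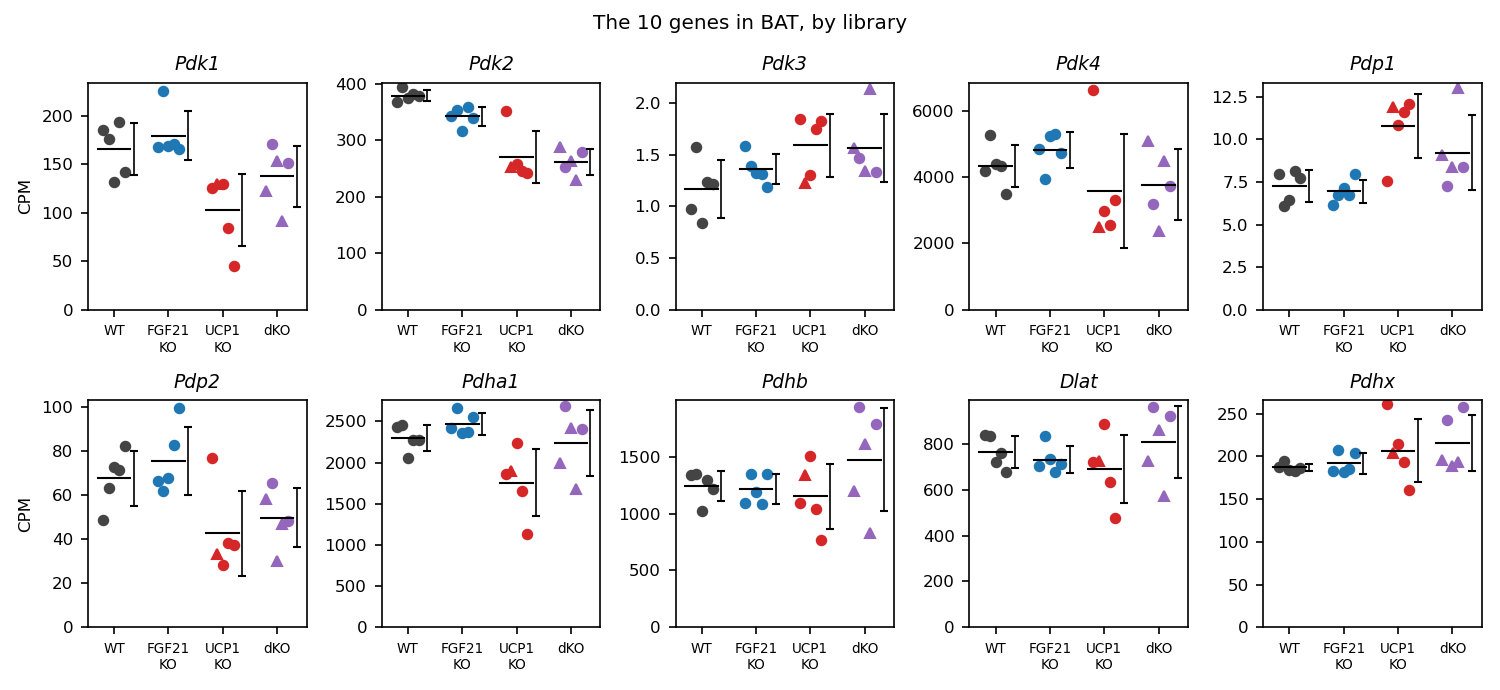
The 10 genes in BAT, drawn as for iWAT: CPM on linear axes, 1 point per library in 4 genotypes, mean and ± SD, with triangles for libraries with a skeletal muscle score above 6. Pdk2 is at 368 to 394 CPM in WT and at 230 to 352 in the libraries of UCP1 KO and dKO, and Pdk4 overlaps among all genotypes.

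Of the other BAT members, Pdk1 stood at 125, 130, 130, 84.8 and 45.1 CPM in UCP1 KO and at 185, 176, 132, 194 and 142 CPM in WT. Here too every UCP1 KO library was below every WT library, but Pdk1 had an adjusted p of 0.0212 (-0.69 ± 0.23, edgeR). Pdp2 stood at 76.7, 33.3, 28.3, 38.3 and 37.1 CPM in UCP1 KO and at 48.9, 63.1, 72.6, 71.5 and 82.3 CPM in WT (-0.66 ± 0.24, adjusted p = 0.0337, edgeR). UCP1 KO replicate 1 was within the range of WT, and the other 4 were below it. Pdha1 differed by -0.39 ± 0.14 (1132 to 2236 CPM against 2052 to 2460, adjusted p = 0.0370), and Pdhb, Dlat and Pdhx by -0.11 to 0.14 with adjusted p of 0.293 or more. Pdk4 stood at 6614, 2489, 2967, 2544 and 3312 CPM in UCP1 KO and at 4184, 5278, 4396, 4330 and 3486 CPM in WT, so that replicate 1 was above all WT libraries and the other 4 were below them (-0.27 ± 0.24, adjusted p = 0.371, edgeR).

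Without BAT UCP1 KO replicate 1, which had a mean log2(CPM + 0.1) over the brown adipocyte markers of 8.96 against 7.71 to 8.26 in the rest of its group, 4 of 10 members were called against WT, where 29.8% of all genes were. This omission is singled out because the library stood apart for Pdk2 and Pdp1, so the calls without it are a description. Pdk4 was then lower by -0.61 (adjusted p = 0.00828), Pdp2 by -0.98 (adjusted p = 0.000686) and Pdk2 by -0.60 (adjusted p = 2.52e-06), and Pdp1 was higher by 0.68 (adjusted p = 0.000604, edgeR). Among BAT libraries, no member was called in UCP1 KO against dKO (0 of 10 by edgeR and by DESeq2, 1 with an unadjusted p under 0.05, 0.0636% of all genes called), with differences of -0.42 to 0.23. Between UCP1 KO and FGF21 KO, Pdk1 (-0.80 ± 0.23) and Pdk2 (-0.34 ± 0.09) were called lower and Pdp1 (0.64 ± 0.15) higher, 3 of 10 against 22.4% of all genes. Of these only Pdp1 was called under every alternative and omission tried, whereas Pdk1 was kept in 5 and Pdk2 in 7 of 20 single omissions. No BAT member was called between FGF21 KO and WT (0 of 10 by edgeR and by DESeq2, 0 with an unadjusted p under 0.05, 0.0% of all genes), or in the interaction of the 2 deletions (0 of 10 by both tools, 0 with an unadjusted p under 0.05, 0.0% of all genes). The Pdk4 share of the kinase level was 90.4 ± 2.30% in UCP1 KO, 90.8 ± 2.79% in dKO and 89.6 ± 1.22% in WT, and the Pdp2 to Pdp1 ratio was 3.47 ± 2.55, 4.49 ± 1.78 and 7.48 ± 1.62.

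In liver and muscle no member was called in any of the comparisons, by edgeR or by DESeq2 (0 to 3 of 10 had an unadjusted edgeR p under 0.05 in liver and 0 to 1 in muscle). Of all genes tested in liver, 0.0694% were called in UCP1 KO against WT, 0.0416% in dKO against WT, 0.229% in FGF21 KO against WT, 0.00694% in UCP1 KO against dKO and in dKO against FGF21 KO, 0.0972% in UCP1 KO against FGF21 KO, and 0.0% in the interaction. In muscle the same comparisons called 0.0265%, 0.0529%, 0.00662%, 0.0%, 0.0595%, 0.0265% and 0.0% of all genes. In liver, UCP1 KO and WT differed by -0.48 to 0.84 on the log2 scale, with 3 members at an unadjusted edgeR p under 0.05. Pdk1 stood at 59.6, 54.7, 72.7, 58.0 and 75.3 CPM in UCP1 KO and at 104, 85.6, 85.0, 89.9 and 82.0 CPM in WT, without overlap (2.07% of all genes), and had an adjusted p of 0.137 (edgeR). Pdk4 was low in liver and uneven between libraries. It stood at 10.1, 6.40, 5.86, 4.45 and 2.92 CPM in WT, at 3.90, 5.49, 5.25, 4.08 and 34.5 CPM in UCP1 KO, and at 13.5, 52.8, 7.48, 9.05 and 10.1 CPM in dKO. A single library in each of UCP1 KO and dKO was far above the rest, and neither difference from WT passed the test (0.84 ± 0.61 and 1.64 ± 0.61, adjusted p = 0.666 and 0.281, edgeR). Pdp2 was higher in every FGF21 KO liver library than in WT, at 34.6 to 40.7 against 25.5 to 33.2 CPM (1.56% of all genes did not overlap), without passing the test (adjusted p = 0.693).

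In muscle, UCP1 KO and WT differed by -0.35 to 0.08 over the 10 members, with no unadjusted edgeR p under 0.05. The two-sided exact permutation test of log2 CPM gave Pdk2 an unadjusted p of 0.0397. It was run 120 times over members, tissues and comparisons, and some of the other runs gave lower values. Among them were 0.0159 for muscle Pdp2 between dKO and FGF21 KO and 0.00794 for liver Pdk1 between UCP1 KO and WT. Muscle Pdk4 stood at 1316, 1732, 1439, 2019 and 1866 CPM in WT and at 2622, 1356, 727, 601 and 1270 CPM in UCP1 KO, so that UCP1 KO held both the highest and the lowest library of the 2 groups. The subunits varied little there, with Pdhx at 97.7 ± 5.80 CPM in WT and 98.9 ± 6.70 in UCP1 KO, and Pdha1 at 910 ± 65.5 and 901 ± 77.7.

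The difference between tissues in the effect of UCP1 loss was tested directly, as UCP1 KO against WT in 1 tissue minus the same in another, in a fit of all 80 libraries. Between BAT and iWAT, 9 of 10 members differed, where 10.5% of all genes did. The effect was lower in BAT for Pdk4 by -3.24 ± 0.66 (adjusted p = 0.000189, edgeR), for Pdhb by -1.80 ± 0.31 (adjusted p = 8.37e-06) and for Pdp2 by -1.76 ± 0.33 (adjusted p = 6.25e-05), and higher in BAT for Pdp1 by 0.75 ± 0.21 (adjusted p = 0.00726). Between iWAT and liver 5 members differed (3.03% of all genes), namely Pdk1 and the 4 subunits, and between iWAT and muscle Pdk4 and the 4 subunits did (1.93%). All 10 of these differences were toward a higher effect in iWAT. Without the iWAT libraries with lymph node signal, the members called numbered 9, 7 and 8 in these 3 pairs (14.7%, 6.97% and 5.49% of all genes), and without the fat libraries with muscle signal 8, 5 and 5 (8.54%, 3.82% and 2.04%). Of the 19 calls, that for Pdp1 alone was lost in these fits (adjusted p = 0.0133 and 0.0312, edgeR). No member was called between BAT and liver, BAT and muscle, or liver and muscle (0 of 10 each by edgeR and by DESeq2, with 1, 2 and 0 at an unadjusted p under 0.05, and with 5.38%, 4.31% and 0.0109% of all genes called). The spread is pooled over tissues here, and with only the 2 tissues compared the calls for Pdp1 and Pdhx (BAT and iWAT), Pdk1 (iWAT and liver), and Pdha1, Dlat and Pdhx (iWAT and muscle) were lost.

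Other genes around pyruvate dehydrogenase were taken from 6 lists, 62 genes in all. In iWAT, 7 of 62 rose in UCP1 KO against WT and none fell (0.61% of all genes were called), with a median log2 difference of 0.97 over the lists. They included 4 of 15 fatty acid oxidation and PPAR target genes, with Cpt1b, the muscle-type carnitine palmitoyltransferase, up by 3.76, Hadhb by 2.10, Acadvl by 2.03 and Hadha by 1.93. The others were 2 of 12 known regulators of Pdk genes (the nuclear receptors Ppara by 3.38 and Esrra by 0.92) and 1 of 15 genes of pyruvate supply and other fates (Pkm, pyruvate kinase, by 1.59). None was called among 7 partners and lipoylation genes of the complex, 4 users of acetyl-CoA or 9 genes of the sister dehydrogenases. Against dKO, 5 of the 62 rose, Cpt1b by 3.81, Ppara by 3.43, Acadvl by 2.02, Hadha by 1.91 and Pkm by 1.51 (0.466% of all genes were called), and against FGF21 KO 27 of the 62 did (3.76%).

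In BAT, 17 of the 62 changed in UCP1 KO against WT, 7 up and 10 down, with a median of -0.13, where 25.2% of all genes were called, a share near that of the lists. Of the fatty acid oxidation and PPAR target genes, Cpt1a, the liver-type carnitine palmitoyltransferase, rose by 1.57, the lipid droplet gene Plin2 by 1.40 and the fatty acid binding protein gene Fabp3 by 0.87. Cpt1b and Hadhb fell by 0.41 and 0.31. Of the regulators, Hif1a rose by 0.75, whereas Foxo1 fell by 0.90, Ppargc1b by 0.90 and Rxra by 0.66. In pyruvate metabolism the monocarboxylate transporter gene Slc16a7 fell by 2.61, the lactate dehydrogenases Ldhd and Ldhb by 1.23 and 0.43, the malic enzyme Me3 by 0.71 and the transaminase Gpt by 0.66, and Gpt2 rose by 0.77. Of the sister dehydrogenases, Bckdhb rose by 0.46 (mean of 136 CPM in WT and 187 in UCP1 KO). Ogdhl rose by 1.69 at a very low level (0.276 and 0.897 CPM). Between dKO and WT in BAT 14 of the 62 were called, where 21.1% of all genes were. Between UCP1 KO and WT, 1 of 59 was called in liver (Gpt2, by -0.80) and 0 of 62 in muscle.

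Among the genes whose log2 CPM followed Pdk4 most closely over the 20 iWAT libraries were Phospho1 (Pearson's r = 0.983), Acadvl (0.977), Samm50 (0.975) and Uqcrc1 (0.975), of 13767 genes ranked. These libraries share genotype and lymph node differences, so the values are a description. In BAT the closest was Tab3 (0.839), in liver Htatip2 (0.846) and in muscle AK080982 (0.827), each over 20 libraries, and no gene was among the 5 closest in more than 1 tissue.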

How the data were processed

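RNA was measured in 80 libraries, 5 for each of 4 genotypes in 4 tissues, prepared with a stranded poly(A) kit and sequenced as read pairs. The authors aligned reads to the mouse genome mm10 with STAR and counted them per gene with HTSeq; the strand setting is not given in the sources used here. The deposited values are whole read counts per gene, not normalized, of which the median library held 38022853. Rows that name no gene (at most 3.42e-05% of a library) were left out.

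Counts were tested per tissue with edgeR 4.0.16 (R 4.3.3), by a quasi-likelihood fit of the 4 genotype means over 20 libraries with TMM scaling. Genes were kept with a maximum count above 15, a sum above 75 and at most 10 libraries at 0, which left 15729 in BAT, 17380 in iWAT, 14407 in liver and 15114 in muscle. P-values were adjusted by Benjamini-Hochberg over all genes tested and called under 0.01. The comparisons of each deletion with WT and with dKO share libraries. Tissue differences came from 1 fit of 16 groups. CPM values were TMM-scaled within each tissue, and those per kilobase over all 80 libraries together. The log2 CPM used a prior count of 2. Levels per kilobase used the union of annotated exons (GENCODE M21). The methods give 5 mice per genotype, and no label says which libraries came from the same mouse. Replicate numbers follow the order of deposition.

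The scripts were tested on simulated data: of 200 genes changed in simulated counts, edgeR recovered 41% in the iWAT comparison of UCP1 KO with WT (77% of those changed 4-fold) and 68% in BAT (94%). Alternatives were DESeq2 1.42.0, RLE scaling, no filter, marker scores as covariates, fits of only the groups compared, a threshold of 0.05, and omission of libraries. The omission of libraries with marker signal from the tissue fits was chosen after seeing the data. The members, the lists of other pathway genes and the rule for naming genes by likeness to Pdk4 (the 5 highest Pearson correlations per tissue, mean CPM of at least 1) were chosen with earlier results of these data known. A gene that this rule names in iWAT is not reported here. Pathway genes were named where called. Figures were drawn with matplotlib 3.10.9 and tests of single genes run with scipy 1.17.1 in Python 3.11.15.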

Additional observations from a re-analysis of the deposited data

Results flagged for a closer look

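In 10 of 160 groups of 5 libraries, 1 library lay farther from the others than Dixon's 95% limit of 0.71 (the gap divided by the group's range), which chance alone gives in about 1 group in 20. In BAT, UCP1 KO replicate 1 was such a library for Pdk2 (0.837), at 352 CPM against 243 to 258 in the others, and for Pdp1 (0.771), at 7.56 against 10.9 to 12.1 CPM. BAT FGF21 KO replicate 2 was one for Pdk1 (0.899), at 225 against 165 to 171 CPM. In iWAT, UCP1 KO replicate 2, the library of that group with lymph node signal, was one for Pdk3 (0.832), at 12.9 against 5.46 to 6.31 CPM, and for Pdp1 (0.771), at 11.2 CPM with 16.1 as the lowest of the others. In liver, UCP1 KO replicate 5 was one for Pdk4 (0.844), at 34.5 against 3.90 to 5.49 CPM, and FGF21 KO replicate 2 for Pdk1 (0.803), at 102 against 69.1 to 74.7 CPM. In muscle, UCP1 KO replicate 1 was one for Pdp2 (0.823), at 11.6 against 3.74 to 4.57 CPM, and for Pdha1 (0.729), at 1034 against 837 to 887 CPM, and UCP1 KO replicate 5 for Pdk3 (0.727), at 0.621 against 0.867 to 0.982 CPM.

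The effect of UCP1 loss differed between tissues by a direct test of the difference (edgeR, adjusted p under 0.01) in 19 cases. BAT minus iWAT, it was -1.35 on the log2 scale for Pdk1, -1.36 for Pdk2, -3.24 for Pdk4, 0.75 for Pdp1, -1.76 for Pdp2, -1.74 for Pdha1, -1.80 for Pdhb, -1.68 for Dlat and -1.04 for Pdhx. The case of Pdp1 was called in 8 and that of Pdhx in 19 of 20 omissions of a single library, lost for Pdhx without iWAT UCP1 KO replicate 5 (adjusted p = 0.0111, edgeR). In iWAT minus liver, the difference was 1.16 for Pdk1, 1.52 for Pdha1, 1.75 for Pdhb, 1.72 for Dlat and 1.42 for Pdhx. In iWAT minus muscle, it was 3.33 for Pdk4, 1.38 for Pdha1, 1.73 for Pdhb, 1.52 for Dlat and 1.18 for Pdhx, and the case of Pdhx was called in 19 of 20 omissions, all but that of iWAT UCP1 KO replicate 5 (adjusted p = 0.0145, edgeR). Without the iWAT libraries with lymph node signal, 18 of the 19 were called, and 18 without the fat libraries with muscle signal, in both cases all but Pdp1 (0.68, adjusted p = 0.0133 and 0.0312, edgeR).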

How the results depend on the processing

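No paired analysis was possible because the labels carry no replicate numbers and do not link the libraries of one mouse. No call changed direction. The counts of members called moved as follows. In iWAT, UCP1 KO against WT gave 1 member and against dKO 1; DESeq2 gave 6 and 7, the lymph node score as covariate 6 and 8, omission of libraries with lymph node signal 8 and 6, a threshold of 0.05 5 and 6, and a fit of the 2 genotypes alone 0 and 0, while omission of libraries with muscle signal gave 0 against WT. Against FGF21 KO the 7 became 0 with 2 genotypes, 1 without muscle signal and 0 without lymph node signal, where FGF21 KO kept 1 library that is assumed to vary like the others. In BAT, UCP1 KO against WT went from 2 to 1 with the muscle covariate or 2 genotypes and to 5 at 0.05. For dKO against FGF21 KO, the 1 became 0 with the muscle covariate or without muscle signal, and 2 at 0.05. For UCP1 KO against FGF21 KO, the 3 became 5 with DESeq2 or at 0.05, and 1 without a filter, with the muscle covariate or with 2 genotypes. In fits of 2 tissues, the effect differed in 1 member (Pdk2) rather than 0 between BAT and muscle, and in 2 rather than 5 between iWAT and muscle, which became 8 without the libraries with lymph node signal. With the longest transcript as length, the Pdk4 share in WT was 85.9% in BAT, 49.2% in iWAT and 74.0% in muscle. Omission of single libraries gave 0 to 5 members in iWAT against WT, 0 to 6 against dKO and 4 to 8 against FGF21 KO, and in BAT 1 to 4 for UCP1 KO against WT, 1 to 5 against FGF21 KO and 0 to 1 for dKO against FGF21 KO. Pdk3 in liver had counts as low as 7 in a library. The causes of these shifts were not tested.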
